A study of Sus scrofa with 9 samples.

Results

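The day on which the first additional molar of the miniature pig reached the bell stage, embryonic day 60 (E60), was set against the days on either side of it. For each probe set the contrast was the E60 mean minus the average of the E50 and E70 means, on the log2 scale of the array signal. A probe set was called when its limma p-value was under 0.05 after Benjamini-Hochberg adjustment over every tested probe set. It was termed a peak when it was called higher and all 3 E60 arrays lay above the other 6, and a trough when it was called lower and all 3 lay below. All 9 arrays of the series and 23999 of its 24123 probe sets entered the contrast, and 124 array controls were set aside. Of these probe sets 118 were peaks and 126 were troughs.

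All samples were additional molar germs, with the dental lamina still attached, from the mandibles of Wuzhishan miniature pigs, and none carried a treatment or a genetic change. Additional molars are the permanent molars behind the milk teeth, and M1 and M2 denote the first and second of them. The E50 group held M1 at the cap stage with M2 not yet initiated. The E60 group held M1 at the bell stage with M2 starting, and the E70 group held M1 at the late bell stage with M2 little altered. Each stage had 3 arrays, termed biological replicates in the labels. Germs of 1 stage and litter were pooled for RNA. Whether the arrays of a stage came from separate litters was not stated, so the p-values measure only the spread between these samples. The tissue was not sorted, and in bulk tissue fewer cells of a type and less RNA per cell cannot be told apart.

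In a tooth germ the enamel epithelium folds over the condensed mesenchyme of the dental papilla, and both are wrapped in the dental follicle, whose cells lay down a collagen-rich matrix and later form the periodontal ligament, cementum and part of the socket. At the bell stage the crown pattern is laid out and alveolar bone is modelled around the germ by osteoblasts, which deposit matrix, and by osteoclasts, which remove it. The next molar buds from the rear end of the lamina while the tooth in front of it grows. The contrast addressed which transcripts stood apart on the single sampled day that combined these events.

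The E50 arrays stood apart from the rest. Their signals correlated with each other at 0.605 to 0.683 (Pearson's r over probe sets), against 0.902 to 0.914 among E60 arrays and 0.901 to 0.921 among E70 arrays. Array background, the 95th percentile of 23 probe sets for sequences foreign to the pig, was 77.7 to 379 on the E50 arrays and 37.9 to 55.8 on the other 6. The 3′ to 5′ ratio of EF1A, which rises when RNA is short or copied only in part, was 49.3 to 55.8 at E50 and 1.35 to 1.56 on the other 6 arrays. Of 9 such measures, ribosomal RNA was the one with all E60 arrays beyond the other 6: the 28S rRNA controls had geometric mean signals of 1281, 11780 and 5410 in the order of the stages, and the 18S rRNA controls of 1131, 3031 and 1234. The exact two-sided permutation test over the 84 splits of 3 from 9 arrays gave p = 0.0238 for 28S and 0.0119, the smallest it allows, for 18S (both adjusted p = 0.107). The hybridisation spike-in controls had geometric mean signals of 63310, 4227 and 3571 in the order of the stages. E60 and E70 also differed, with poly-A spike-in controls at 1367 to 1392 and 597.3 to 613.5. Their GAPDH 3′ to 5′ ratios were 6.98 to 9.24 and 4.36 to 6.47. The part of all these differences in the results was not tested. The step from E70 is given alongside the contrast, also from a fit without the E50 arrays, which leaves the differences between E60 and E70 in place.

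The contrast called 251 probe sets higher at E60 (1.05% of those tested) and 227 lower (0.946%). Peaks were 0.492% and troughs 0.525% of all probe sets. Most of the calls rested on E50. The E60 mean lay between the E50 and E70 means for 60 of the probe sets called higher and 37 of those called lower, which therefore passed through neither a peak nor a trough. Of the 118 peaks, 110 had a called step from E50 and 20 a called step from E70 in the fit of 9 arrays. Over all probe sets the step from E50 was called for 18.5% and the step from E70 for 0.421%. Both steps were called for 13 peaks and 11 troughs. The median peak stood 1.99 log2 units above E50 and 0.77 above E70, and the median trough 2.11 below E50 and 1.12 below E70. These steps share the E60 arrays with the contrast and are no separate evidence for it. In the fit of 6 arrays, without E50, 0.975% of probe sets were called higher at E60 and 0.775% lower, and these included 32 of the peaks and 31 of the troughs.

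**Figure D1:**
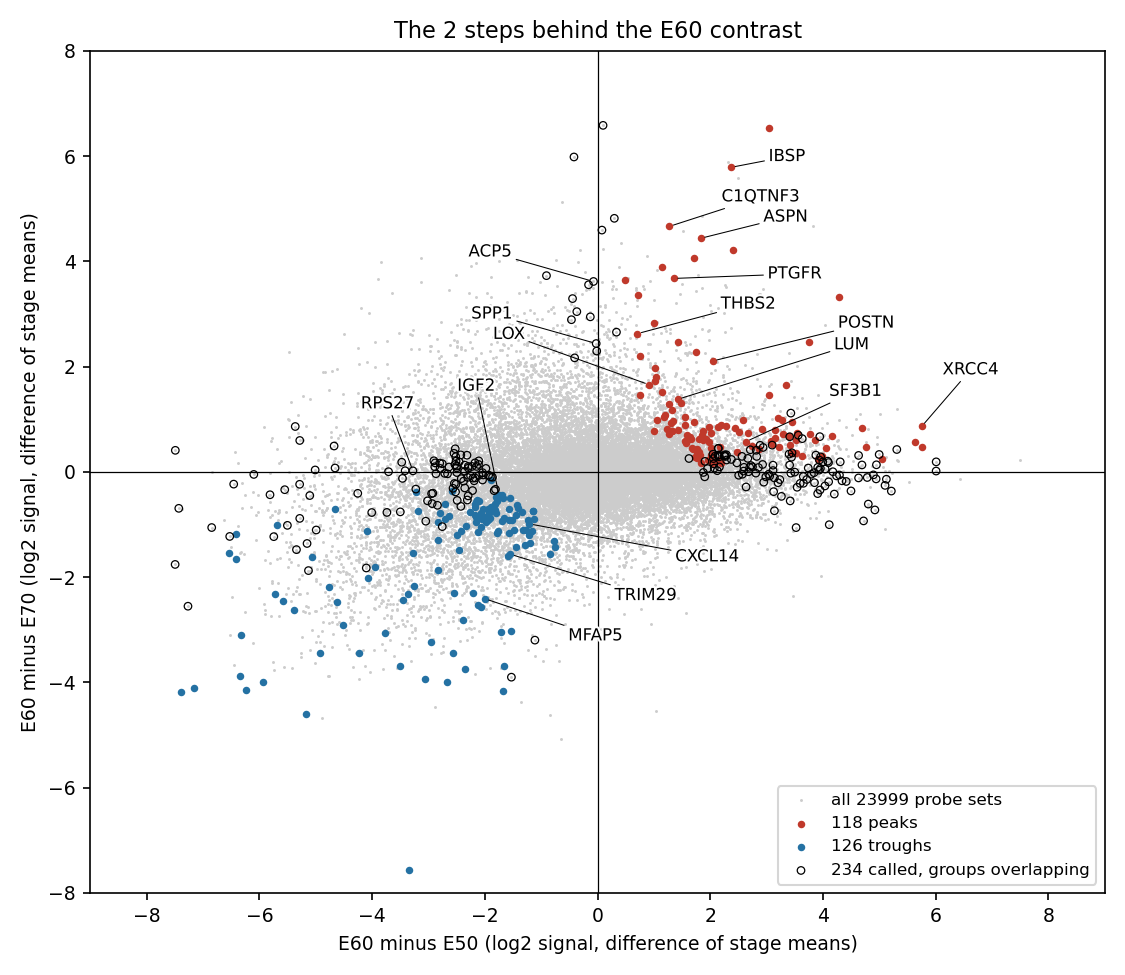
Each dot is 1 probe set, with the E60 minus E50 difference on the horizontal axis and the E60 minus E70 difference on the vertical axis, both in log2 signal. The 118 peaks (red) and 126 troughs (blue) stretch along the E50 axis, where 93 peaks and 103 troughs have their larger step, while IBSP, ASPN, C1QTNF3 and PTGFR stand high on the E70 axis. Open circles are called probe sets that are neither peaks nor troughs, with E60 arrays that overlap another stage or lie between the other stages.

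Of the peaks, 60 had 1 gene symbol, 2 had more than 1 and 56 were unnamed, and the numbers for the troughs were 50, 2 and 74. Each gene was represented by its brightest probe set, which gave 6765 genes. By that rule 1.14% of genes were called higher at E60 and 1.29% lower, irrespective of overlap. All E60 arrays lay above the other 6 for 4.89% of genes and below them for 5.51%, whether called or not. The median contrast over all genes was -0.10. These values are the yardstick for the gene groups below.

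IBSP, a gene of the mineralising matrix, and a few genes of the fibrous matrix gave the clearest peaks. IBSP, which encodes bone sialoprotein, a mineral-binding protein of young bone and cementum, had MAS5 signals of 2100, 1626 and 2385 at E50, 9837, 10900 and 10480 at E60, and 146, 222 and 206 at E70. The signal was thus present before the bell stage, rose 5.17-fold by E60 and was 55.1 times lower again at E70. The contrast was 4.08 ± 0.23 log2 units (SE, limma adjusted p = 0.0034), the step from E50 2.37 ± 0.26 (adjusted p = 0.0024) and that from E70 5.79 ± 0.26 (adjusted p = 0.00054). ASPN, encoding asporin, a small leucine-rich proteoglycan of the periodontal ligament and other dense connective tissue, followed the same course. Its signals were 7157, 5651 and 4659 at E50, 19690, 20490 and 21060 at E60, and 883, 924 and 1025 at E70. The contrast of ASPN was 3.13 ± 0.20 (adjusted p = 0.0034), with E60 3.56 times E50 and 21.7 times E70.

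POSTN, encoding periostin, a secreted matrix protein of follicle and periosteum, differed from these in that both sides of the peak were alike. It gave 4398, 4616 and 4007 at E50, 17020, 19030 and 17690 at E60, and 3391, 4868 and 4353 at E70. The steps were 2.05 ± 0.22 from E50 and 2.11 ± 0.22 from E70 (adjusted p = 0.0024 and 0.013). LUM, encoding lumican, a proteoglycan that spaces collagen fibrils, had a flatter peak of the same form, with signals of 8081, 7297 and 6148, then 22690, 17630 and 17490, then 6832, 8774 and 6663. Its contrast was 1.40 ± 0.21 (adjusted p = 0.031), and its step from E70 passed in the fit of 6 arrays (adjusted p = 0.044) but not in that of 9 (adjusted p = 0.093). LOX, the lysyl oxidase that cross-links collagen and elastin, gave 2600, 2003 and 2477 at E50, 4292, 4650 and 4347 at E60, and 1505, 1350 and 1370 at E70. Its contrast was 1.28 ± 0.18 (adjusted p = 0.029), with both steps called.

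A further set of secreted and membrane proteins peaked with a much deeper drop to E70 than to E50. C1QTNF3, a secreted relative of complement C1q that is made in cartilage and connective tissue, gave 518, 511 and 494 at E50, 1218, 1173 and 1299 at E60, and 41.2, 38.8 and 71.3 at E70. The E70 signals sat at the array background, which 2 of them exceeded. PTGFR, the receptor of prostaglandin F, gave 1614, 1072 and 683 at E50, 3053, 2553 and 2522 at E60, and 167, 258 and 219 at E70. For C1QTNF3 the contrast was 2.97 ± 0.24 (adjusted p = 0.0092). For PTGFR it was 2.51 ± 0.31 (adjusted p = 0.021). THBS2, the matricellular protein thrombospondin 2, was added after its values were seen. It gave 2839, 2687 and 2581 at E50, 4375, 4514 and 4334 at E60, and 828, 682 and 645 at E70, a contrast of 1.67 ± 0.18 (adjusted p = 0.014). Its step from E70, 2.62 ± 0.20, passed (adjusted p = 0.0034), and its step from E50, 0.71 ± 0.20, missed the threshold (adjusted p = 0.051).

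**Figure D2:**
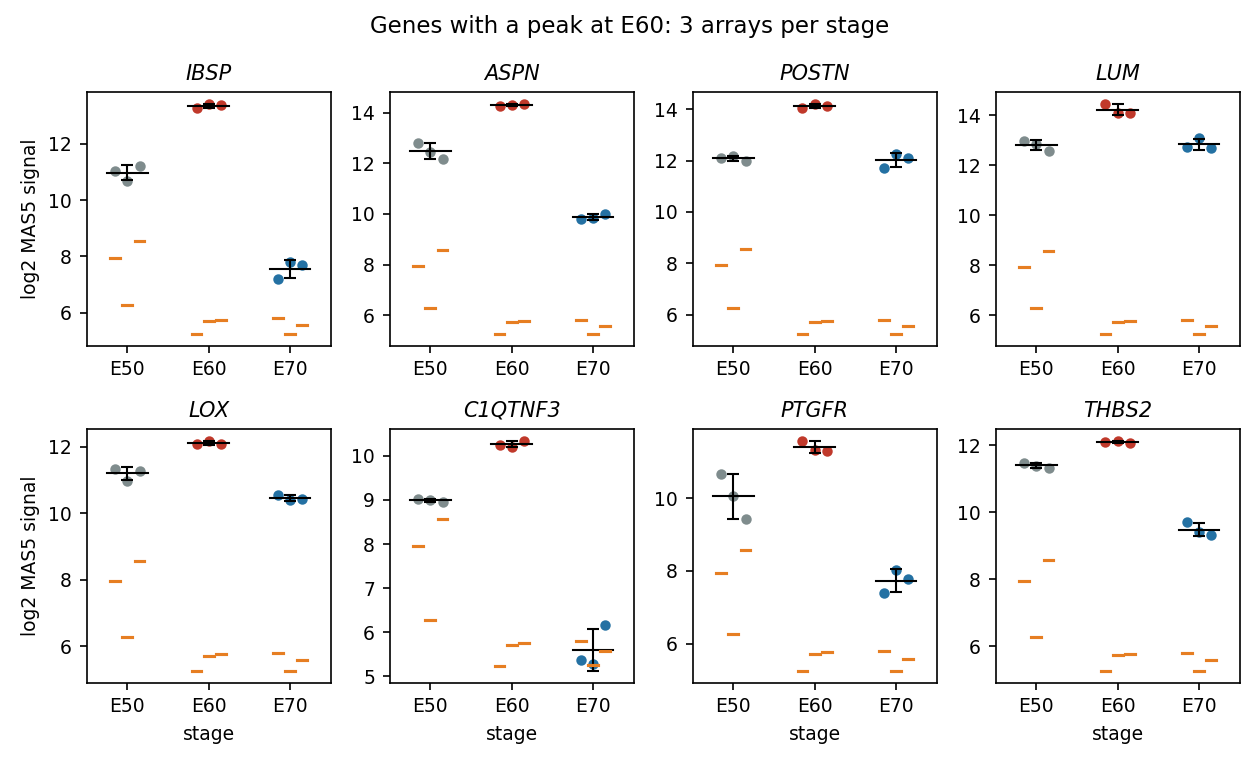
Log2 MAS5 signal of 8 genes with a peak at E60, on a separate scale for each gene. Dots are single arrays, bars the mean and SD of 3 arrays, and orange ticks the background of each array; in every panel the 3 E60 arrays lie above the other 6, and C1QTNF3 reaches background at E70.

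The list of dental follicle and mesenchymal matrix genes held 32 names, of which 19 were measured and all 19 were above background on every E60 array. Of these, 4 were peaks (POSTN, ASPN, LUM and LOX) and 1 was a trough (MFAP5, described with the troughs). The other 14 were not called. Its members stood above all other arrays at E60 in 26.3% of cases, counting COL5A2 (contrast 2.63 ± 1.38, adjusted p = 0.35), against 4.89% of all genes. COL5A2 exceeded background on only 1 E50 array. In the step from E50, 4 of the 19 were called higher and 4 lower. The list median was 0.34 in the contrast, -0.03 in the step from E50 and 0.61 in the step from E70. DCN, encoding decorin, and FN1, encoding fibronectin, were bright and not called, with contrasts of 0.34 ± 0.18 and -0.02 ± 0.19.

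No other bone matrix gene of the list met the rule for a peak. On the list of odontoblast, bone and mineralisation genes, 14 were measured, 2 were called higher and none lower. The list median was -0.17 in the contrast, -0.18 in the step from E50 and 0.57 in the step from E70. Summed over the list, the signal fell across the stages, from 188562 to 222828 at E50 through 123481 to 124950 at E60 to 46645 to 54640 at E70. SPP1, encoding osteopontin, a bone matrix protein that anchors osteoclasts, was the second call, with 51630, 43680 and 53390 at E50, 51310, 46030 and 48420 at E60, and 9054, 9406 and 8461 at E70. E50 and E60 overlapped, so SPP1 was no peak, and its contrast of 1.21 ± 0.17 (adjusted p = 0.030) came from the 5.42-fold difference to E70 (adjusted p = 0.0047). BGLAP, encoding osteocalcin, lay above the other arrays at E60 with 261, 282 and 310, against 15.9 to 243 at E50 and 54.9 to 81.0 at E70. Its contrast did not pass (adjusted p = 0.16). BGLAP was under background on all E50 arrays, so that E60 was at least 1.46-fold above E50. Its step from E70 was called in the fit of 6 arrays (adjusted p = 0.019). COL1A2, a chain of type I collagen, also lay above the others at E60, with 1041 to 1395 against 346 to 934 on the other 6 arrays (adjusted p = 0.053). The step of COL1A2 from E70 was called in the fit of 6 arrays as well (adjusted p = 0.044). ALPL, the alkaline phosphatase that supplies phosphate for mineral, lay below the other 6 at E60, with 621 to 807 against 838 to 1779 (contrast -0.72 ± 0.20, adjusted p = 0.11).

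Of the osteoclast genes, those called higher at E60 stood at the level of E50. Of 17 measured, 16 were above background on all E60 arrays, and 2 were called higher, ACP5 and ATP6V0D2. ACP5, the tartrate-resistant acid phosphatase of osteoclasts, gave 3521, 3560 and 2682 at E50, 2947, 3002 and 3267 at E60, and 245, 238 and 269 at E70, a contrast of 1.77 ± 0.19 (adjusted p = 0.014) in which E50 and E60 overlapped. ATP6V0D2, a proton pump subunit used by osteoclasts, gave 407, 270 and 430 at E50, 430, 435 and 468 at E60, and 28.04, 9.34 and 14.9 at E70, where all arrays were below background. E60 exceeded E70 at least 9.49-fold (adjusted p = 0.0052). The list median of the contrast, 0.58, was the highest of the 45 lists, with medians of -0.07 for the step from E50 and 0.83 for the step from E70. The proton pump subunits ATP6V1A and ATP6V1B2 lay above the other 6 arrays without a call (adjusted p = 0.42 and 0.11).

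Among 31 measured matrix proteases and inhibitors none was called in the contrast, and the list median was -0.004. MMP1, MMP13, TIMP1 and SERPINF1 (12.9%) lay above the other 6 arrays at E60, against 4.89% of all genes. CTSD and PLOD1 (6.45%) lay below them, against 5.51% of all genes. MMP1 was under background on all E50 arrays, and its step from E70, 0.54 ± 0.40, was not called (adjusted p = 0.93). MMP13, the collagenase of bone and cartilage turnover, gave 427, 501 and 541 at E60. It was below background on all arrays at E50 and at E70, so that E60 was at least 2.51-fold above E50 and 10.4-fold above E70, with a fitted contrast that did not pass (adjusted p = 0.098). SERPINF1, encoding a secreted inhibitor of vessel growth that acts in bone, gave 7076, 6825 and 7956 at E60 against 3524 to 4656 on the other arrays (contrast 0.88 ± 0.17, adjusted p = 0.053). Its step from E70 was called in the fit of 6 arrays (adjusted p = 0.045).

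Genes of myeloid blood cells were mixed at E60. NPG4, a gene of the protegrins, antimicrobial peptides stored in pig neutrophils, was a peak, with 378, 469 and 556 at E50, 699, 803 and 775 at E60, and 49.0, 94.2 and 85.8 at E70. Its contrast was 2.04 ± 0.27 (adjusted p = 0.026), with a step of 3.37 ± 0.31 from E70 (adjusted p = 0.0069), and the step from E50, 0.71 ± 0.31, was not called (adjusted p = 0.15). The array held 6 probe sets for NPG4. The protegrin genes are near-identical, so these probe sets cannot be assigned to 1 of them. Signal was higher at E60 than at E70 on the means of all 6, with 5 of them called in the fit of 6 arrays, and 4 had all E60 arrays above the other 6. Of these 4, only the probe set given above exceeded background on all E50 arrays. A further NPG4 probe set was called in the contrast (adjusted p = 0.027) with its E60 mean below that of E50 (step -0.42), so it was no peak. S100A9, a calcium-binding protein abundant in neutrophils, gave 459, 571 and 463 at E60 against 44.3 to 353 at E50 and 94.2 to 119 at E70 (contrast 1.94 ± 0.63, adjusted p = 0.15). Its step from E70, 2.26 ± 0.17, was called in the fit of 6 arrays (adjusted p = 0.012). S100A12, LTF and FCGR3A, also genes of neutrophils and monocytes, lay above the other 6 arrays and were not called (adjusted p = 0.16, 0.23 and 0.24). S100A12 and LTF were under background on all E50 arrays, so a rise from E50 is not measured for them. S100A8, the partner of S100A9, gave 47.6 to 48.8 at E60, inside its E50 range of 16.2 to 338 (contrast 0.12 ± 1.08). AIF1, a macrophage gene, gave 486 to 611 at E60 against 1716 to 3251 at E50 and 250 to 452 at E70 (contrast -0.81 ± 0.30, adjusted p = 0.20), and CD14, a monocyte receptor, was under background on all E60 and E70 arrays. NPG4, S100A9, S100A12, LTF, FCGR3A, S100A8, AIF1 and CD14 were picked after their values were seen.

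The macrophage and immune list, with 43 measured genes, had 1 peak, C1QA, a subunit of complement C1q, with 117 to 143 at E60, 84.9 to 92.6 at E70 and signals under background on all E50 arrays, so no fold to E50 is given. Its step from E70, 0.54 ± 0.20, was called in neither fit (adjusted p = 0.55 with 9 arrays and 0.15 with 6). The list median was 0.09 in the contrast, -0.91 in the step from E50 and 0.65 in the step from E70. Of the 43, 5 (11.6%) lay above the other 6 arrays, against 4.89% of all genes, and C1QA, S100A12 and LTF among them were under background at E50. C1QC, a partner subunit, ran downhill instead, from 756 to 1043 at E50 through 277 to 359 at E60 to 91.0 to 99.1 at E70, with a contrast of 0.12 ± 0.20. PTPRC and ITGAM, general markers of white blood cells, were at background on all 9 arrays. Summed over the list, the E50 arrays gave 19963 to 25692, the E60 arrays 10806 to 11501 and the E70 arrays 8384 to 9640. For the osteoclast list these sums were 28840 to 33282, 27138 to 29458 and 13300 to 18197. The part of bone, marrow and blood in the dissected tissue was not tested.

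**Figure D3:**
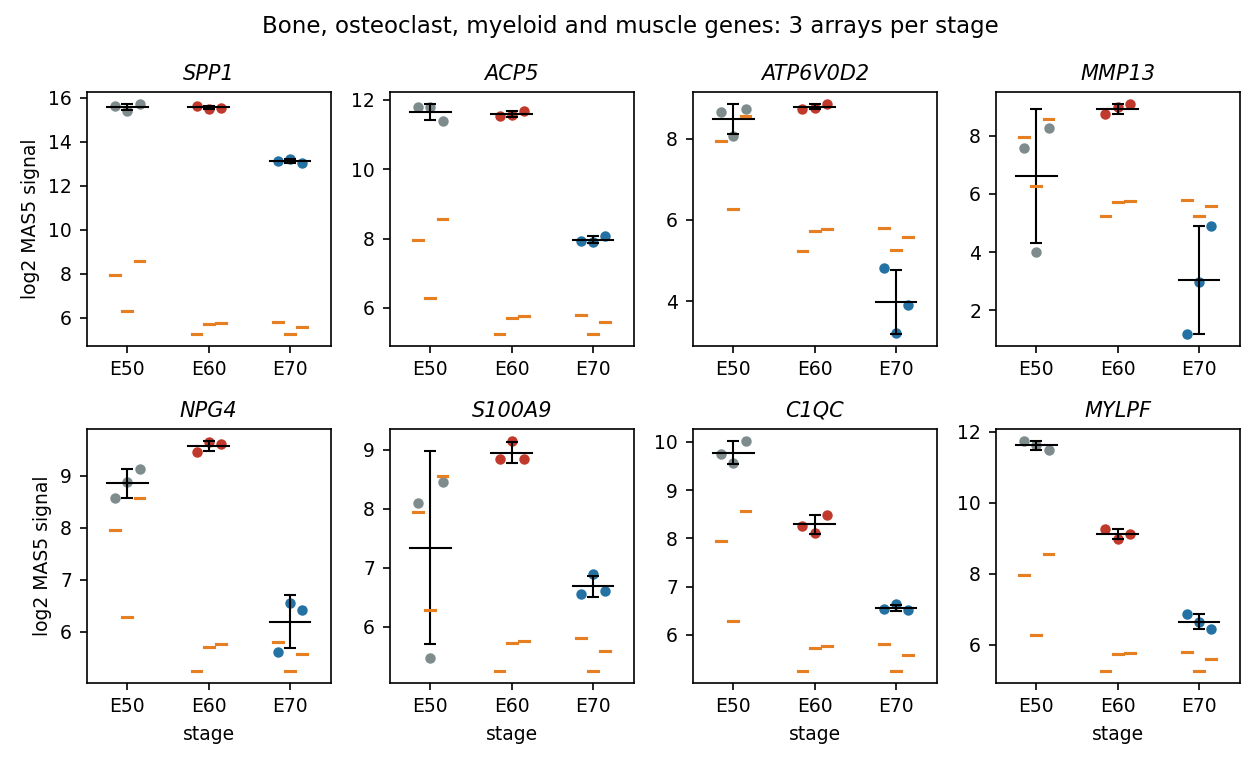
Log2 MAS5 signal of 8 genes of bone, osteoclasts, myeloid cells and skeletal muscle, on a separate scale for each gene. Dots are single arrays, bars the mean and SD of 3 arrays, and orange ticks the background of each array; SPP1, ACP5 and ATP6V0D2 are at the same height at E50 and E60 and drop at E70, NPG4 and S100A9 are highest on the E60 arrays, and C1QC and MYLPF decline across the stages.

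Beyond the matrix, several peaks ranked by their smaller step encode proteins of unrelated function. FAM46A, a poly(A) polymerase whose loss in people causes brittle bones, gave 1276, 1117 and 1112 at E60 against 408 to 721 at E50 and 320 to 468 at E70 (contrast 1.33 ± 0.25, adjusted p = 0.048). PROS1, the anticoagulant protein S, gave 5987, 6767 and 5672 at E60 against 2770 to 3302 at E50 and 2932 to 3379 at E70 (contrast 1.02 ± 0.18, adjusted p = 0.044). ACADM, a mitochondrial enzyme of fatty acid oxidation, gave 3482, 3110 and 3584 against 1254 to 1444 and 1555 to 2028 (contrast 1.15 ± 0.18, adjusted p = 0.035). ANKRD10 gave 4085, 3801 and 5470 at E60 against 884 to 1105 at E50 and 1657 to 3287 at E70 (adjusted p = 0.043). For ACADM and ANKRD10 the step from E70 did not pass in either fit. FAM46A and PROS1 passed it in the fit of 6 arrays (adjusted p = 0.042 and 0.049).

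XRCC4, which holds DNA ligase IV at double-strand breaks, and ARHGAP28, which switches off RHOA, belong to the 36 peaks whose probe set was under background on all E50 arrays. XRCC4 gave 381, 584 and 517 at E60 and 239, 288 and 279 at E70, and E60 exceeded E50 at least 2.51-fold. Its contrast had an adjusted p of 0.0034, but its step from E70, 0.86 ± 0.24, did not pass (adjusted p = 0.34). ARHGAP28 gave 132, 165 and 189 at E60 and 30.8, 65.7 and 66.3 at E70 (adjusted p = 0.28 for that step, and 0.10 in the fit of 6 arrays). Its E60 signals lay under the E50 array backgrounds of 248 and 379, so no fold to E50 is given. For such genes the background of the E50 arrays bounds what can be said of the rise, and 75 of the 118 peaks were above background on all 9 arrays.

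Of 62 measured genes for the endoplasmic reticulum, Golgi and vesicle traffic, 2 were peaks, SEC62 and VPS26A, none was called lower, and 11 (17.7%) lay above the other 6 arrays against 1 below. SEC62, part of the channel through which proteins enter the endoplasmic reticulum, gave 2890, 3379 and 3139 at E60 against 581 to 1035 at E50 and 1468 to 2105 at E70 (contrast 1.41 ± 0.25, adjusted p = 0.043). VPS26A, a subunit of the retromer that recycles cargo from endosomes, gave 2154, 1587 and 1967 against 709 to 846 and 941 to 1027 (contrast 1.12 ± 0.19, adjusted p = 0.040). ERGIC2, a protein that cycles between the endoplasmic reticulum and the Golgi, was a peak outside that list, with 1568, 2044 and 1635 at E60 against 330 to 410 and 878 to 1002 (contrast 1.57 ± 0.19, adjusted p = 0.021). The step from E70 passed in neither fit for SEC62, VPS26A or ERGIC2. In the step from E50, 12 of the 62 were called higher and 9 lower, and the summed signal of the list was 240568 to 262100 at E50 and 205736 to 212302 at E60. Quantile normalization left none of the 62 called in the E60 contrast.

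Uncalled members of the same list included coat and cargo proteins of vesicles leaving the endoplasmic reticulum. SEC23A gave 4208, 4150 and 4068 at E60 against 2146 to 3222 on the other arrays, and SEC24D gave 1901, 2205 and 1704 against 1079 to 1417 (adjusted p = 0.13 and 0.12). Among 40 measured chaperones, PTGES3, a co-chaperone of HSP90, was the 1 call and a peak, with 2718, 2251 and 2322 at E60 against 748 to 806 and 1248 to 2046 (contrast 1.15 ± 0.22, adjusted p = 0.048). Its step from E70, 0.66 ± 0.25, was not called (adjusted p = 0.56, and 0.23 in the fit of 6 arrays). Another 8 chaperones lay above the other 6 arrays, among them HSPA5 and HSP90B1, the main chaperones of the endoplasmic reticulum (contrasts 0.82 ± 0.25 and 0.87 ± 0.18, adjusted p = 0.13 and 0.057). With PTGES3 this was 22.5% of the chaperones, against 4.89% of all genes. The list medians, 0.25 for vesicle traffic and 0.25 for chaperones, compare with -0.10 for all genes.

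Splicing factors contributed calls in both directions, with E60 and E70 close together. Of 66 measured, 5 were called higher and 1 lower, and 2 were peaks and 1 a trough. SF3B1, the large subunit of the splicing complex that grips the branch point, gave 9563, 9410 and 10100 at E60 against 1015 to 2037 at E50 and 6350 to 6716 at E70 (contrast 1.60 ± 0.26, adjusted p = 0.035). A second SF3B1 probe set fell across the stages instead, with means of 8.53, 7.88 and 6.83 log2 units (contrast 0.20 ± 0.57, adjusted p = 0.89). RBM39 gave 6877, 6853 and 6485 against 1749 to 2158 and 5140 to 6094 (contrast 1.01 ± 0.18, adjusted p = 0.044). SF3B4, another subunit of the SF3B1 complex, was the trough, with 206, 166 and 220 at E60 against 824 to 978 and 272 to 328 (contrast -1.40 ± 0.19, adjusted p = 0.027). The E60 to E70 step of these 3 genes was not called in either fit. SRSF11, TRA2A and CLK1 were called higher with E60 and E70 overlapping, and the list median was 0.58 for the step from E50 and -0.03 for the step from E70.

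Among the troughs, a microfibril gene came first of the 15 ranked by their smaller step. MFAP5, a microfibril protein that binds fibrillin in elastic tissue, gave 1246, 780 and 1205 at E50, 255, 243 and 295 at E60, and 1073, 1551 and 1657 at E70. It fell 4.00-fold from E50 and was 5.32 times higher again at E70, with a contrast of -2.21 ± 0.25 (adjusted p = 0.016) and both steps called (adjusted p = 0.0057 and 0.020). TRIM29, a protein of stratified epithelia, was as symmetric, with 460, 561 and 520, then 171, 169 and 186, then 496, 506 and 555. The contrast of TRIM29 was -1.56 ± 0.17 (adjusted p = 0.016), and both of its steps were called. MFAP5 and the follicle peaks POSTN, ASPN, LUM and LOX are all matrix genes, and they differed in direction.

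CXCL14, a chemokine made by epithelium and fibroblasts, was bright on all arrays, with 14620, 13150 and 12840 at E50, 6030, 5604 and 5888 at E60, and 13590, 10440 and 10990 at E70 (contrast -1.10 ± 0.18, adjusted p = 0.037). HSD17B2, which inactivates estradiol, gave 323, 406 and 283 at E60 against 784 to 1393 at E50 and 698 to 768 at E70 (contrast -1.37 ± 0.25, adjusted p = 0.045). CYP2A19, a cytochrome P450, gave 148, 235 and 187 against 495 to 529 and 432 to 681 (contrast -1.44 ± 0.24, adjusted p = 0.040). E50 and E70 overlapped for CXCL14 and CYP2A19, and for HSD17B2 all E70 arrays lay below the E50 arrays. The step from E70 passed for none of these 3 genes in either fit (adjusted p = 0.054 to 0.25). The other CXCL14 probe set had E60 next to E50, with mean log2 signals of 11.97, 11.80 and 12.81 in the order of the stages. The other HSD17B2 probe set rose across the stages, with means of 6.20, 6.92 and 7.64, and 1 of its E50 arrays exceeded background. Neither probe set was called in the contrast.

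Other troughs of the rule were deeper towards E50. SPTAN1, a spectrin of the membrane skeleton, gave 276, 175 and 143 at E60 against 889 to 1075 at E50 and 367 to 415 at E70 (contrast -1.69 ± 0.25, adjusted p = 0.031). AGPAT1, which makes phosphatidic acid, had a contrast of -1.48 ± 0.21, ACSF2, an acyl-CoA synthetase, of -1.22 ± 0.23, and TK2, the thymidine kinase of mitochondria, of -1.45 ± 0.27 (adjusted p = 0.030, 0.047 and 0.048). EMG1, a methyltransferase of ribosome assembly, CD151, a tetraspanin that binds integrins, MAZ, a zinc finger transcription factor, and PLBD2, a lysosomal protein, had contrasts of -1.22, -1.24, -1.27 and -1.44. OGFOD3 and HCFC1R1 had contrasts of -1.48 and -2.06. None of these genes had a called step from E70 in either fit. Centring each array on its median ended the calls of 9 of the 15 ranked troughs, CYP2A19, HSD17B2, CXCL14, AGPAT1, ACSF2, TK2, EMG1, CD151 and MAZ (adjusted p = 0.065 to 0.14), and those of SF3B4 and IGF2 (adjusted p = 0.061 and 0.20). It also ended the lower calls of IGFBP5 and PGAM2 (adjusted p = 0.074 and 0.086), which were no troughs. Quantile normalization ended the calls of 11 of these 15 troughs and of 7 of the 15 ranked peaks. The 15 troughs and 15 peaks kept their direction under both settings.

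**Figure D4:**
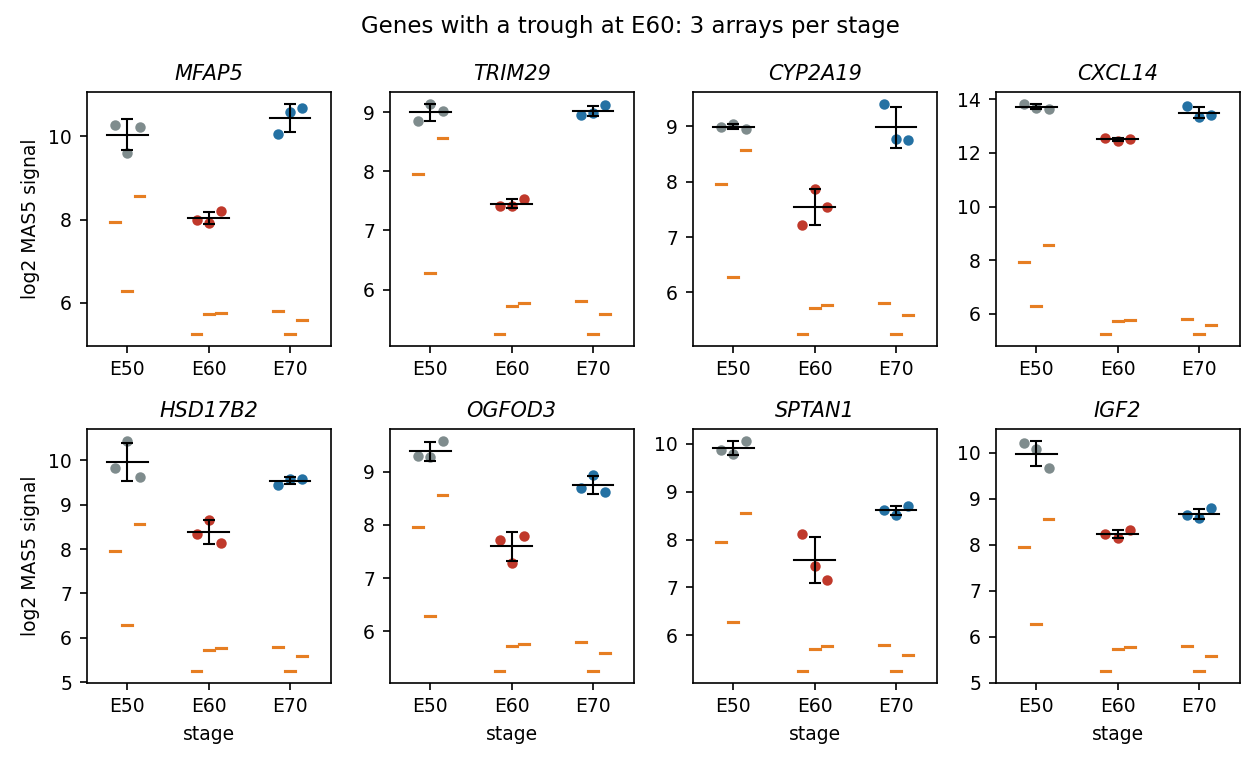
Log2 MAS5 signal of 8 genes with a trough at E60, on a separate scale for each gene. Dots are single arrays, bars the mean and SD of 3 arrays, and orange ticks the background of each array; MFAP5, TRIM29, CYP2A19 and CXCL14 are near the same height at E50 and E70, while SPTAN1 and IGF2 stay closer to E60 at E70.

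Many troughs were at the limit of detection: 46 of 126 had all E60 arrays at or under background. These included 3 of the first 4 trough genes by their smaller step, which the rule's minimum level removed and which were named after their values were seen. GNRH1 was above background on the E70 arrays alone (97.3 to 145), at least 2.58 times E60. IL21 was under background at E60 and gave 50.1 to 77.2 at E70, at least 1.32 times E60, and 240 to 299 at E50, where 2 arrays exceeded background. KCNA2 was under background on all 9 arrays. DDX60, the trough of the interferon list, was under background on all E60 and E70 arrays and exceeded it on 1 array at E50, so its direction at E60 against E70 is not measured.

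Growth factors of the insulin family gave 1 trough among 17 measured genes. IGF2, a fetal growth factor, gave 1184, 1079 and 815 at E50, 299, 284 and 321 at E60, and 401, 381 and 445 at E70 (contrast -1.09 ± 0.20, adjusted p = 0.045). It fell 3.37-fold from E50 (adjusted p = 0.0040), and the step from E70, -0.44 ± 0.23, did not pass (adjusted p = 0.78). IGF2 had 12 other probe sets, none of which was called. Of these, 10 had negative contrasts, as the brightest had, and 2 positive ones, of 0.18 and 1.24. IGFBP5, a binding protein of these factors, was called lower without a trough, since E60 (212 to 231) and E70 (216 to 254) overlapped and E50 was at 904 to 1135.

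Cytosolic ribosomal proteins made up the largest group of lower calls, and none was a trough. Of 60 measured, 14 were called lower and none higher, with list medians of -0.71 in the contrast, -1.43 in the step from E50 and 0.07 in the step from E70. RPS27 gave 436900, 418500 and 469800 at E50, 44190, 44270 and 48250 at E60, and 52370, 41410 and 41960 at E70. E60 and E70 overlapped in 12 of the 14, and in RPL23 and RPL38 the E60 arrays lay above the E70 arrays. The step from E70 was called for none of the 14 in either fit. The calls depended on the scale: 2 remained when each array was centred on its median and 0 after quantile normalization, where the list median was -0.06.

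Keratin and adhesion genes of epithelium were not called in the contrast. KRT8, a keratin of simple epithelium, gave 1822, 1585 and 1781 at E60 against 2048 to 3207 at E50 and 3930 to 4375 at E70 (contrast -0.96 ± 0.21, adjusted p = 0.065). The epithelial adhesion genes CDH1 and EPCAM had contrasts of -0.53 and -0.29 (adjusted p = 0.25 and 0.57), with E50 and E60 overlapping for CDH1. In the fit of 6 arrays KRT8, CDH1 and EPCAM were called lower at E60 than at E70 (limma adjusted p = 0.026, 0.038 and 0.030). Of 9 measured genes of the enamel epithelium and ameloblasts none was called in the contrast and none lay beyond the other 6 arrays. Of these, 4 (CDH1, KRT19, TUFT1 and DSP) were above background on every E60 array. The list median was -0.52 in both the contrast and the step from E50, and -1.11 in the step from E70. In the fit of 6 arrays 2 of the 9 were called lower at E60 than at E70. Of the tooth germ transcription factors, 7 were measured and 6 were above background on every E60 array (MSX1, LEF1, DLX5, GLI1, PRRX1 and TFAP2B). None was called, and 2, PRRX1 and TFAP2B, lay above the other 6 arrays at E60 (28.6%, against 4.89% of all genes).

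Few signalling genes were called. FZD5, a Wnt receptor, was a peak and the 1 call among 17 measured genes of the WNT pathway. It gave 385, 522 and 434 at E50, 680, 785 and 773 at E60, and 108, 195 and 203 at E70 (contrast 1.47 ± 0.26, adjusted p = 0.044), with a step of 2.19 ± 0.30 from E70 (adjusted p = 0.038), and the step from E50, 0.75 ± 0.30, was not called (adjusted p = 0.13). DKK1, a secreted Wnt inhibitor, lay below the other 6 arrays at E60, with 280 to 346 against 468 to 1581 (contrast -1.19 ± 0.27, adjusted p = 0.071). LFNG, which modifies Notch receptors, lay below them with 558 to 651 against 713 to 1268 (adjusted p = 0.094). FGFR2, a receptor of fibroblast growth factors in dental epithelium, lay above them with 1352 to 1754 against 93.0 to 1312 (adjusted p = 0.15). No gene was called among 24 measured in the TGF-beta and BMP pathway, 9 in the hedgehog pathway and cilium, 13 in the Notch pathway and 20 among FGF receptors and MAP kinases.

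None of the 9 measured genes that the study followed was called. BMP4, a signal exchanged between dental mesenchyme and epithelium, gave 749 to 821 at E50, 882, 1292 and 1083 at E60, and 3120 to 4749 at E70, so its E60 arrays lay between the other stages (contrast -0.66 ± 0.22, adjusted p = 0.16). MSX1, a transcription factor of dental mesenchyme, lay between them as well, with 2814 to 3102, then 1407, 1357 and 1510, then 764 to 1299 (contrast -0.25 ± 0.22, adjusted p = 0.59). CTNNB1, which encodes β-catenin, gave 20160, 23220 and 20270 at E60 and 17120 to 20950 at the other stages (contrast 0.18 ± 0.18, adjusted p = 0.65). DKK2, GLI1, TCF7L2 and TGFB2 had contrasts of 0.14, -0.25, -0.71 and 0.75 (adjusted p = 0.16 to 0.83). WNT10B was under background on all E60 and E70 arrays, and TCF4 on 2 of 3 arrays at each of these stages.

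Of the genes tied to molar agenesis 9 were measured and none was called. TFAP2B, a transcription factor of neural crest, lay above the other 6 arrays at E60, with 1682, 1643 and 1680 against 1175 to 1454 at E50 and 926 to 1159 at E70 (contrast 0.48 ± 0.18, adjusted p = 0.20). IKBKG and NFKBIA, both of the NF-kappa B pathway, had contrasts of -0.89 and -0.48 (adjusted p = 0.092 and 0.25). FST, INHBA and LRP6 had contrasts of 0.11, -0.13 and 0.81 (adjusted p = 0.75 to 0.84). Of the activin receptors, ACVR2A was under background on 4 of 9 arrays and ACVR2B on 7.

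**Figure D5:**
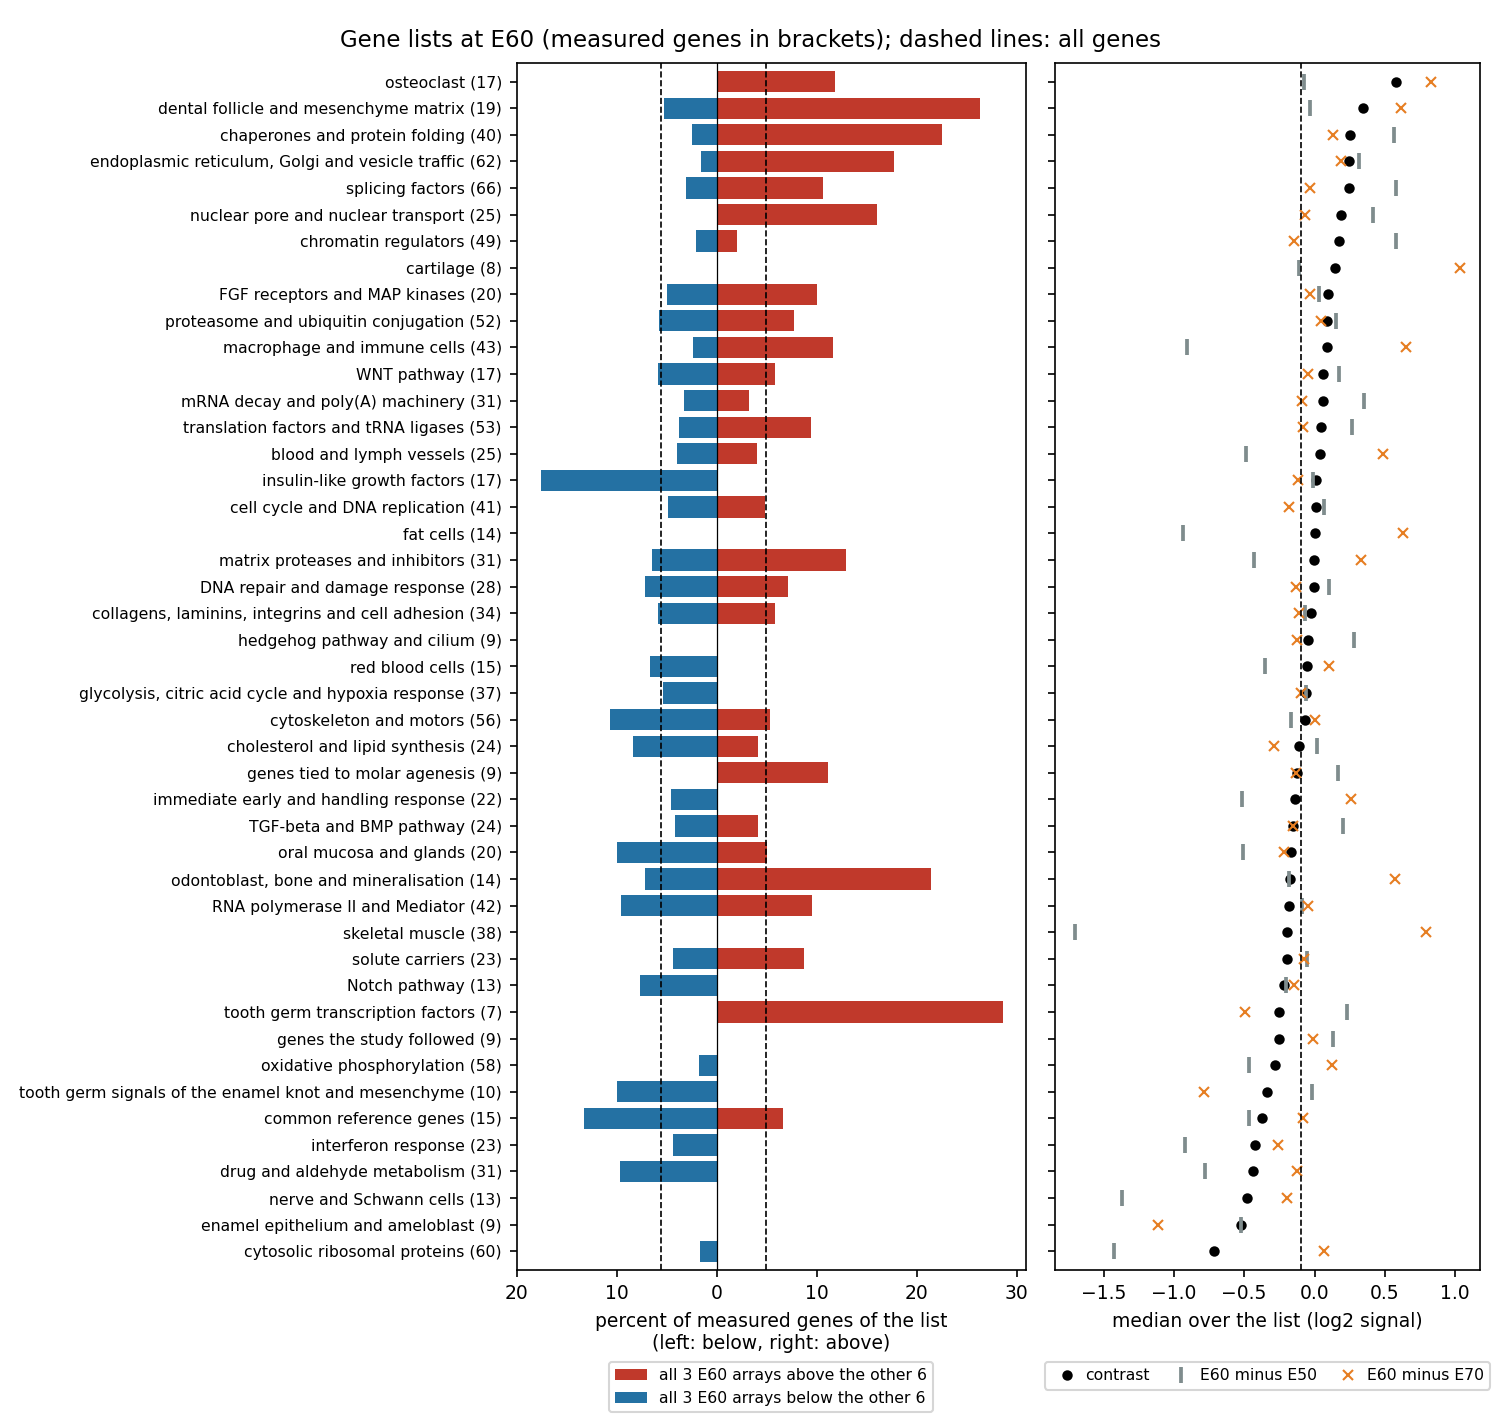
For 45 gene lists, the left panel gives the percent of measured genes whose 3 E60 arrays all lie above (red) or below (blue) the other 6, with dashed lines at 4.89% and 5.51% for all genes, and the right panel the list medians of the contrast, the step from E50 and the step from E70 in log2 signal. Osteoclast, follicle matrix, chaperone and vesicle traffic lists lead by median contrast, and ribosomal proteins are lowest through the step from E50; lists with few genes give coarse percentages.

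Lists for other tissues of the jaw held few calls. The skeletal muscle list, 38 measured, had no peak or trough and 1 call (PGAM2, lower), and its summed signal on the E50, E60 and E70 arrays was 20077 to 23353, 7141 to 7730 and 3931 to 4504. MYLPF, a fast muscle light chain, declined over both steps and had a contrast of -0.01 ± 0.19, while MYH2, MYOD1 and MYF5 were at background on all 9 arrays. No call was made among 25 measured genes of blood and lymph vessels, 15 of red blood cells, 8 of cartilage and 14 of fat cells. Among 20 genes of oral mucosa and glands AMY2, an amylase gene, was a peak, with 47700, 48500 and 48440 at E60 against 10040 to 15070 at E50 and 33570 to 37190 at E70 (contrast 1.23 ± 0.20, adjusted p = 0.035). The step of AMY2 from E70, 0.45 ± 0.23, was called in neither fit (adjusted p = 0.75 and 0.15). Both other AMY2 probe sets were uncalled.

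Probe sets for the same gene gave a partial second reading. For 17 genes with a peak the array held 26 other probe sets, of which 18 had the E60 mean above both other means and 3 were called higher. For 13 genes with a trough it held 26 others, of which 15 had the E60 mean below both and 1 was called lower. None was called in the opposite direction. The second POSTN probe set had steps of 2.22 and 0.91, with all E60 arrays above the other 6 and no call (adjusted p = 0.21), and the second probe sets of LOX and PTGFR were at or near background.

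How far a peak depended on single arrays differed between genes. IBSP, ASPN and XRCC4 and 1 probe set with no gene symbol were called higher in all 9 fits that each left out 1 array, and no trough was. That unnamed probe set gave 714, 818 and 766 at E60, 435 to 599 at E70 and signals under background at E50. Leaving out any 1 of the E60 arrays kept 4 of the 118 peaks called. POSTN, C1QTNF3 and MFAP5 lost their call in 3, 3 and 5 of the 9 fits, and the highest adjusted p they reached was 0.084, 0.063 and 0.12.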

How the data were processed

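Additional molar germs were profiled on the Affymetrix Porcine Genome Array, 3 arrays at each of E50, E60 and E70, and stages were taken from the labels. The authors ran MAS 5.0 in GeneSpring, which scales each array, and deposited 1 intensity value per probe set on a linear scale, without detection calls. Precision is limited by the number of arrays and by signal over background.

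Values under 1 (900 of all values) were set to 1 and log2 was taken. The E60 contrast and both steps came from 1 limma 3.58.1 fit of all 9 arrays in R 4.3.3 (lmFit, contrasts.fit and eBayes without a trend, with 1.47 prior and 6 residual degrees of freedom), with Benjamini-Hochberg adjustment over 23999 probe sets. A fit of the E60 and E70 stages was made separately. The fit was also run on simulated data with known changes at E60. There the share of false calls was held to a limit only where all stages had equal spread, unlike these arrays.

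Symbols came from the platform annotation (10069 probe sets with 1 symbol, 198 with several and 13732 with none), of which 9961 matched a RefSeq entry. Genes were named when their brightest probe set was a peak with an E60 mean of at least 7.29 log2 units, the median of all probe sets, or a trough with both other means at least that high, the first 15 of each by the smaller step. Up to 4 peaks or troughs of each of 45 lists were added, with all measured followed and agenesis genes. Genes outside this rule (SPP1, BGLAP, COL1A2, ALPL, SPARC, COL5A2, DCN, FN1, ACP5, proton pump, protease, neutrophil, monocyte, macrophage, complement, RPL23, RPL38, SRSF11, TRA2A, CLK1, SEC23A, SEC24D, HSPA5, HSP90B1, RPS27, KRT8, CDH1, EPCAM, DKK1, LFNG, FGFR2, IGFBP5, PGAM2, MYLPF, IL21, GNRH1 and KCNA2) were chosen after their values were seen. The contrast, the lists and the rule were all chosen with earlier results of these data known, and no list was tested as a set.

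A probe set was under background on an array when it did not exceed the 95th percentile of 23 background controls. Where a stage was under background on all arrays, "at least" gives the geometric mean of the brighter stage over that of the background or the probe set's own signal, whichever was higher. Alternatives were median centring, quantile normalization, a floor or a pseudocount of 16, a background filter, a trended robust prior, array weights per stage, the replicate number as a block and leaving out each array. Same-numbered arrays of different stages did not deviate together (correlations of -0.02 to 0.03 over probe sets).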

Additional observations from a re-analysis of the deposited data

Results flagged for a closer look

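Ribosomal RNA was measured by array controls that enter no comparison of genes, and it was higher on all 3 E60 arrays than on the other 6. The geometric mean signal of the 28S rRNA controls was 11780 at E60, against 1281 at E50 and 5410 at E70. That of the 18S rRNA controls was 3031 at E60, against 1131 and 1234. Both had an adjusted exact permutation p of 0.107 over 9 measures. Groups of 3 arrays are too small for a test of single outlying arrays.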

How the results depend on the processing

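The numbers of calls depended strongly on the processing. As reported, 251 probe sets were called higher, 227 lower, 118 were peaks and 126 troughs, and numbers are given below in that order. They were 723, 520, 362 and 317 with array weights per stage, 862, 663, 412 and 321 with a trended robust prior, 745, 657, 354 and 329 after a background filter, 487, 438, 243 and 204 with a floor of 16, and 396, 365, 210 and 176 with a pseudocount of 16. Median centring gave 1054, 116, 575 and 68, so that 90.1% of calls were higher against 52.5% as reported. It moved the median contrast of all probe sets from -0.08 to 0.34, and it kept all 118 peaks called and 61 of the 126 troughs. Quantile normalization gave 78, 53, 40 and 33 and kept 30 peaks and 34 troughs. Requiring both steps to be called gave 13, 11, 13 and 11. In the fit of E60 and E70 without E50, which was added after the data were seen, the 4 numbers were 234, 186, 71 and 66.

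Leaving out 1 array gave 4 to 1147 called higher, 5 to 895 called lower, 4 to 463 peaks and 5 to 491 troughs. Without any 1 E50 array there were at least 313 peaks, without any 1 E70 array 17 to 20, and without any 1 E60 array 4. With the replicate number as a replicate block limma called 0, 0, 0 and 0, with 4219 probe sets at an unadjusted p under 0.05 against 4728 as reported. The numbers did not pair the arrays. Of the named genes with a call, a reversed sign was seen only in other probe sets of IGF2 (0.18 and 1.24, neither called). Signal over background limits the probe sets that were under it on the E50 arrays, 36 of the peaks and 22 of the troughs.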
